A study of Schizosaccharomyces pombe with 12 samples.

Results

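In fission yeast (Schizosaccharomyces pombe) growing in rich medium, 59 antisense RNAs were counted at least as often as the gene they run against. They were chosen by their values in the libraries with wild-type histone H3: an antisense row belonged to the set when its sense gene was also a row, its mean reached 0.1 counts per 1000000 counts in genes (CPM), and this mean was at least that of the sense gene. Of the 7013 rows of the count table, 635 are named as the antisense RNA of a gene, and 568 of these can be paired with their sense gene. Because the rule used the WT levels of both strands, those levels and their ratio are given below as a description, without a test. Every comparison of a mutant with WT shares these WT libraries with the rule. The comparisons between mutants contrast no WT library, though WT entered the estimate of the spread in the same model.

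The series compared 4 groups of 3 libraries each. Cells carried wild-type H3 (WT), H3 with glycine 34 replaced by arginine (G34R), H3 with glycine 34 replaced by valine (G34V), or wild-type H3 together with the mutation labelled Set2D, taken to mean that set2 is deleted (set2Δ). All were grown overnight in the rich medium YES at 25 °C. Stranded libraries were made from DNase-treated total RNA after removal of ribosomal RNA. Whether a group's 3 libraries stem from separate cultures is not in the labels, so the p-values cover only the spread among libraries, which may be technical.

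Antisense transcripts are read from the strand opposite a gene. In growing fission yeast they have been described at many genes that are used in meiosis and sporulation and are kept low in vegetative cells. Set2 methylates lysine 36 of H3, close to glycine 34, in the bodies of transcribed genes, and in yeasts this mark is read by a histone deacetylase complex (Clr6 complex II in fission yeast) that restrains transcription from inside genes and on their antisense strand. The nuclear exosome and the RNA interference pathway remove part of the antisense RNA after it is made.

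Each library held between 65797517 and 228726069 counts in genes, so that 3 counts equal 0.0131 to 0.0456 CPM. All 59 antisense rows lay above this floor in every library, the lowest single value being 109 counts. As a check of the labels, set2 itself stood at 133, 128.5 and 122.3 CPM in WT, 109, 109 and 112 in G34R and 126.3, 128.5 and 135 in G34V, against 4.38, 3.70 and 3.69 in set2Δ. Summed, these antisense RNAs took 0.130 to 0.133% of the gene counts of a WT library, 0.139 to 0.144% of a G34R library, 0.144 to 0.149% of a G34V library and 0.169 to 0.173% of a set2Δ library. The 635 antisense rows as a whole held 0.668 to 0.686%, 0.796 to 0.820%, 0.802 to 0.832% and 1.05 to 1.08% in the same order.

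In WT, the antisense RNAs of the set ranged from 0.988 to 96.3 CPM with a median of 18.99 CPM, and their sense genes from 0 to 46.02 CPM with a median of 5.76 CPM. CPM values here are scaled for library size and composition, unless given as plain CPM, which are scaled for library size only. They are not divided by length, since the lengths of the antisense rows are not given. A ratio of antisense to sense is therefore a ratio of counts. In the 509 other pairs the antisense median was 6.35 CPM and the sense median 70.0 CPM. The WT ratio could be computed for 58 members and ran from 1.08 to 156, with a median of 2.92, against a median of 0.106 in the other pairs. The highest ratio was that of hhf3 and rests on few sense counts, 1 to 10 in a library. Counting the member whose sense gene had no counts, 37 members had a ratio of at least 2 and 9 a ratio of at least 10.

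**Figure D1:**
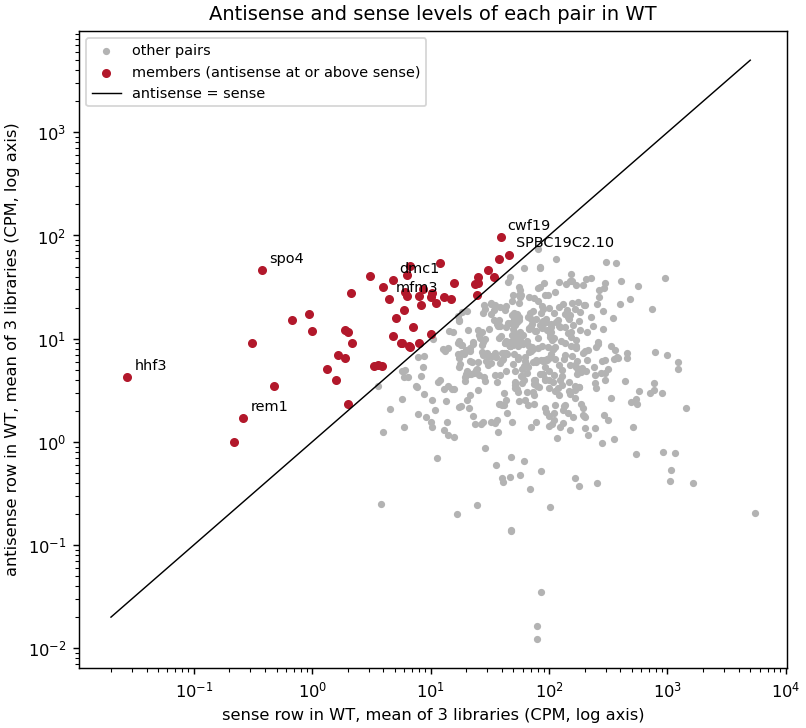
Mean WT level of the antisense row (vertical, CPM, log axis) against that of its sense row (horizontal, CPM, log axis) for the pairs, each point being 1 pair, with the members and the other pairs in different colours. The members lie on or above the line of equal counts, by the rule, and their sense rows reach no higher than 46.02 CPM.

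The threshold ran through a group of close values. On the plain CPM scale of the rule, the members nearest to it were mcp3 (26.0 against 24.04 CPM, ratio 1.08), gnr1 (10.8 against 9.93 CPM, ratio 1.09) and meu17 (8.92 against 7.79 CPM, ratio 1.14). Just outside lay meu25 (17.8 against 18.0 CPM, ratio 0.987), fmd2 (16.2 against 16.7 CPM, ratio 0.974) and SPCC13B11.03c (3.39 against 3.55 CPM, ratio 0.956). Here mcp3 encodes a meiotic coiled-coil protein, gnr1 the beta subunit of a heterotrimeric G protein, and meu17 a glucan-degrading glucosidase. No pair had antisense at or above sense at less than 0.1 CPM.

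The highest antisense counts in WT (mean ± SD, n = 3) were those against cwf19 (96.3 ± 2.01 CPM), SPBC19C2.10 (65.3 ± 0.614 CPM), sgt1 (58.8 ± 1.62 CPM), crp79 (53.7 ± 2.09 CPM), SPBC28E12.02 (50.1 ± 2.05 CPM), SPBC24C6.09c (46.7 ± 0.660 CPM), spo4 (46.1 ± 2.62 CPM) and SPCC1884.01 (41.6 ± 1.36 CPM). In this order the ranges of mean ± SD overlapped between crp79 and SPBC28E12.02 and between SPBC24C6.09c and spo4, and not between the other neighbours. By their annotation, cwf19 belongs to the splicing machinery, sgt1 encodes a protein that binds small nuclear ribonucleoproteins, crp79 a poly(A)-binding protein of mRNA export, and SPBC28E12.02 an RNA-binding protein of the BICC1 family. SPBC19C2.10 encodes a BAR adaptor protein and SPBC24C6.09c a protein of the phosphoketolase family, while spo4 encodes the meiotic kinase of the DDK family and SPCC1884.01 a protein with no annotated function.

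The largest ratios among sense genes of at least 0.1 CPM belonged to spo4 (125.1 ± 24.3, mean ± SD of 3 WT libraries), SPBC887.16 (30.8 ± 8.90), mug93 (22.7 ± 2.11), SPCC417.03 (18.7 ± 1.23), hop1 (13.3 ± 0.933) and SPAC10F6.15 (12.9 ± 0.0936). The spo4 sense gene was at 0.358, 0.440 and 0.330 CPM in the WT libraries. The sense genes of SPBC887.16, mug93 and SPCC417.03 also had a WT mean under 1 CPM, and SPBC887.16 had 34 to 84 counts in a WT library.

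The genome annotation of a later build (RefSeq, ASM294v3) was used for names and neighbours only. It matched 58 of the 59 sense genes, all but SPBC713.13. An annotated noncoding RNA on the opposite strand overlapped 57 of these 58, the exception being mde1, and 507 of 508 sense genes of the other pairs. The next gene beyond the 3′ end pointed towards the sense gene for 20 members (34.5%) and 221 other pairs (43.5%). That neighbour overlapped the sense gene for 5 members (8.62%), against 124 other pairs (24.4%). The 5 members were SPBC2G2.17c with mpi1, mde1 with fml2, SPBC6B1.03c with ppk30, meu17 with ilv6 and SPAC1565.03 with ste4. At these loci, reads of the neighbour's transcript and reads of a separate antisense RNA cannot be told apart. The members rem1 and SPBC16E9.20 are each other's convergent neighbours, so their 4 rows share 1 locus.

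Genes of meiosis and sporulation made up 16 of the 59 sense genes (27.1%), and 5.70% of the other pairs. Put the other way, 16 of the 45 pairs on this list were members (35.6%), against 41 of the 517 pairs on neither list (7.93%). The list takes every symbol that starts with mde, and so holds mde1, which the annotation names as a methylthioribulose-1-phosphate dehydratase of the methionine salvage pathway. It does not hold mcp3, which encodes a meiotic coiled-coil protein, or SPBC6B1.03c, which the annotation names as the meiosis-specific Pal2, and both were counted outside it. Mating and pheromone genes gave 2 members, ste6 and mfm3, of 6 pairs. These shares are descriptions: the members were chosen by WT levels.

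Against WT, most members changed on one or both strands, and the changes were small. Of the 59 antisense RNAs, 34 higher and 8 lower were called in G34R, 32 higher and 7 lower in G34V and 36 higher and 12 lower in set2Δ (edgeR quasi-likelihood F-test, Benjamini-Hochberg adjustment over all 6602 rows tested, called at an adjusted p under 0.05). Among all rows tested, 26.8% were called higher and 26.6% lower in G34R, 25.1% and 25.0% in G34V, and in set2Δ 34.5% and 35.6%. The members' median log2 fold changes were 0.13, 0.11 and 0.16, with medians over all rows of -0.0022, -0.0060 and -0.0057. In the 558 antisense rows outside the set the medians were 0.30, 0.24 and 0.58. Of these rows 410, 347 and 443 were called higher and 21, 34 and 42 lower. The rule picked antisense RNAs that were high beside their sense gene in WT. A weaker rise or a fall of the antisense RNA in the other groups is therefore the direction this choice favours. A change of at least 2-fold was called for 1 antisense RNA in each direction in set2Δ and for none in G34R or G34V.

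The sense genes of the set showed larger median changes. Of the 57 that could be tested, 35 higher and 7 lower were called in G34R, 26 higher and 10 lower in G34V and 32 higher and 12 lower in set2Δ, in the same fit and against the same shares of all rows. Their median log2 fold changes were 0.30, 0.14 and 0.23. In the 494 tested sense rows of the other pairs the medians were -0.020, -0.017 and -0.039. At least 2-fold calls among the members' sense genes numbered 3 higher and 0 lower in G34R, 1 and 1 in G34V, and in set2Δ 7 and 3. The rule picked pairs with a low sense level in WT, so a rise of the sense gene in the other groups is the direction this choice favours.

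**Figure D2:**
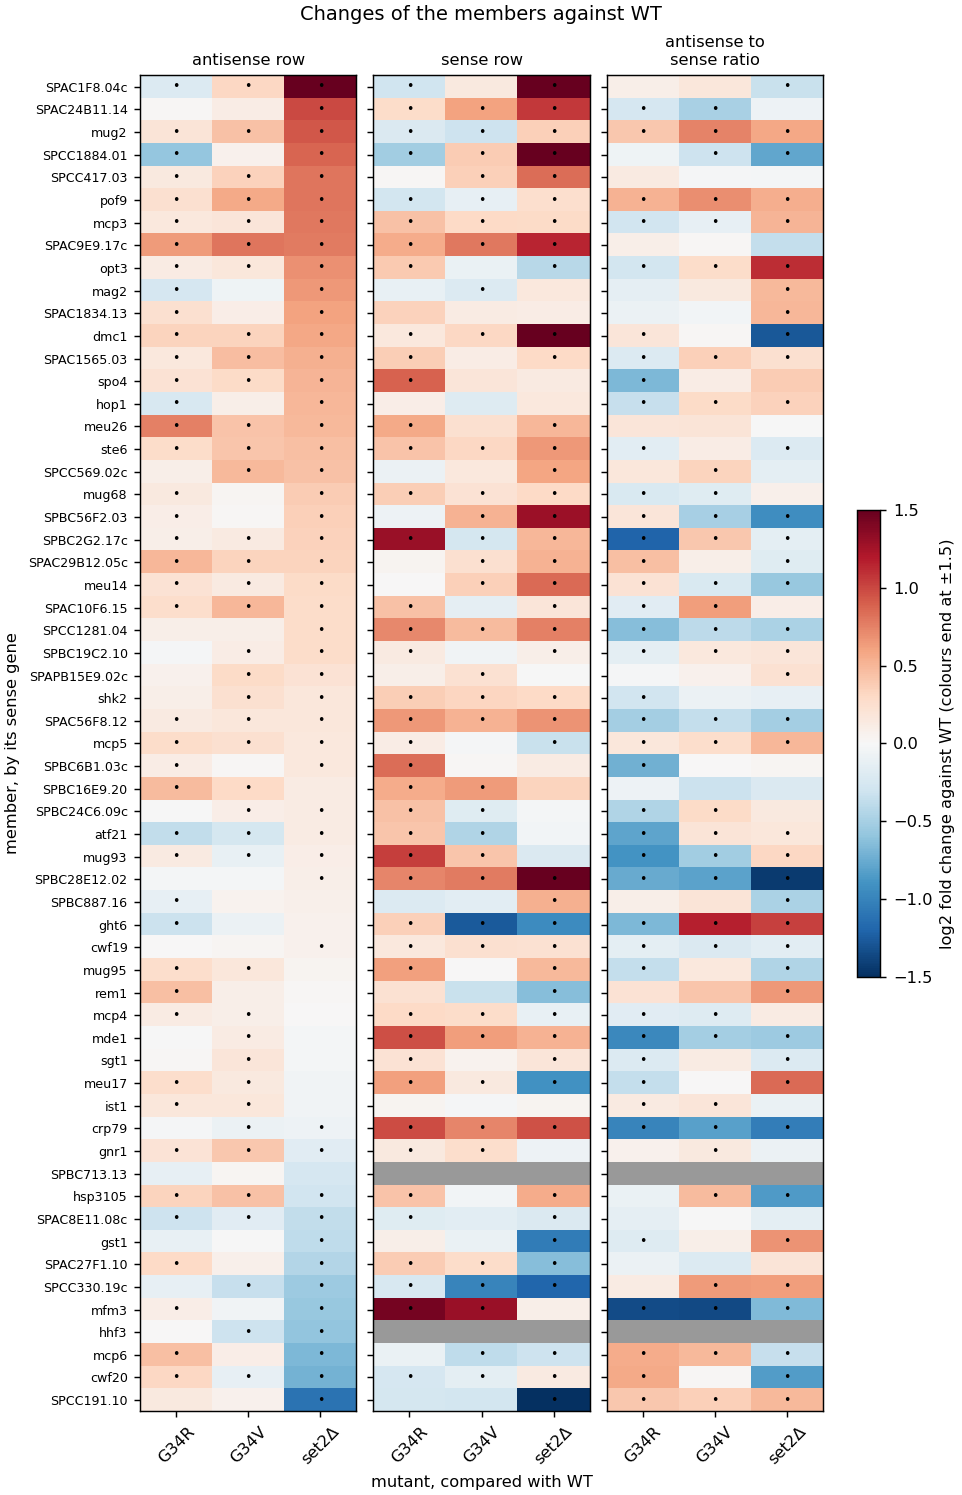
Log2 fold change of each member in G34R, G34V and set2Δ against WT, for the antisense row, the sense row and the ratio of antisense to sense. Rows are members, named by the sense gene and ordered by the antisense log2 fold change in set2Δ against WT. Colour gives the direction and size, black dots mark calls at an adjusted p under 0.05, and grey cells were not tested. The strongest colours lie in the sense panel and at the antisense row of SPAC1F8.04c in set2Δ.

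Among antisense RNAs called with no overlap of single libraries, the largest rises in G34R on the log2 scale were those against meu26 (0.76), SPAC9E9.17c (0.64), SPAC29B12.05c (0.50), SPBC16E9.20 (0.48), mcp6 (0.46) and rem1 (0.45) (SE 0.042 to 0.090, largest adjusted p = 8.07e-04). The largest falls were those against SPCC1884.01 (-0.59), atf21 (-0.37), ght6 (-0.32) and SPAC8E11.08c (-0.32) (SE 0.030 to 0.062, largest adjusted p = 5.64e-04). In G34V the largest antisense rises by the same criterion on the log2 scale were those against SPAC9E9.17c (0.80), pof9 (0.57), SPAC10F6.15 (0.50), SPCC569.02c (0.49), SPAC1565.03 (0.47) and hsp3105 (0.44) (SE 0.034 to 0.10, largest adjusted p = 2.48e-05). The largest falls were those against SPCC330.19c (-0.35), hhf3 (-0.31), atf21 (-0.26) and SPAC8E11.08c (-0.17) (SE 0.031 to 0.090, largest adjusted p = 0.0403). The fall against SPAC8E11.08c in G34V was lost under upper quartile scaling (0.0947), without WT replicate 1 (0.0685), without WT replicate 2 (0.101), without WT replicate 3 (0.0718), without G34R replicate 2 (0.0514), without G34V replicate 1 (0.174) and without G34V replicate 2 (0.0770), with the adjusted p in parentheses. In set2Δ the largest antisense rises on the log2 scale were those against SPAC1F8.04c (1.54), SPAC24B11.14 (0.99), mug2 (0.93), SPCC1884.01 (0.88), SPCC417.03 (0.80) and pof9 (0.80) (SE 0.032 to 0.061, largest adjusted p = 7.88e-10). The largest falls were those against SPCC191.10 (-1.11), cwf20 (-0.71), mcp6 (-0.67) and hhf3 (-0.59) (SE 0.042 to 0.21, largest adjusted p = 9.92e-04). Of the sense genes named here, rem1 encodes a meiosis-specific cyclin, pof9 an F-box protein, SPAC29B12.05c a methyltransferase and hsp3105 a glyoxylase.

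At the 16 genes of meiosis and sporulation, the antisense RNAs were called 13 higher and 2 lower in G34R, 10 higher and 2 lower in G34V and 10 higher and 1 lower in set2Δ. Of the 558 antisense rows outside the set, 73.5%, 62.2% and 79.4% were called higher. The sense genes on the list were called 11 higher and 1 lower, 7 higher and 3 lower and 7 higher and 5 lower, against the shares of all rows given above. The dmc1 locus, whose product is the strand-exchange enzyme of meiotic recombination, changed on both strands. For dmc1-antisense-1 the libraries read 37.5, 36.5 and 37.3 CPM in the WT libraries, 44.4, 49.1 and 46.9 in those of G34R, 47.1, 49.2 and 43.7 in those of G34V and 54.3, 55.4 and 56.1 in those of set2Δ. Each mutant lay above WT with no overlap, and set2Δ above both H3 mutants. The log2 fold change was 0.34 ± 0.040 (SE), adjusted p = 5.01e-06 in G34R, 0.33 ± 0.040 (SE), adjusted p = 7.64e-06 in G34V, and 0.58 ± 0.040 (SE), adjusted p = 3.41e-09 in set2Δ. The dmc1 gene itself stood at 4.66, 4.91 and 4.74 CPM in the WT libraries, 5.46, 5.42 and 5.11 in those of G34R, 5.99, 5.71 and 6.10 in those of G34V and 17.4, 17.2 and 17.0 in those of set2Δ. The WT and H3-mutant values did not overlap but lay close together, while set2Δ stood apart from the other 9 libraries, at 1.85 on the log2 scale against WT (adjusted p = 9.52e-15). The ratio of the 2 strands was 7.78 ± 0.317 in WT cells, 8.79 ± 0.579 in G34R cells, 7.88 ± 0.725 in G34V cells and 3.21 ± 0.0923 in set2Δ cells (mean ± SD, n = 3). Its fall in set2Δ was called (log2 change of the ratio -1.27 ± 0.063 (SE), adjusted p = 1.40e-12).

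The hop1 and spo4 pairs kept a large excess of antisense in every library. Hop1 is a protein of the meiotic chromosome axis, and hop1-antisense-1 read 38.4, 40.4 and 43.3 CPM in the WT libraries, 33.3, 33.8 and 35.8 in those of G34R, 43.7, 41.96 and 44.6 in those of G34V and 54.8, 59.8 and 57.9 in those of set2Δ. It was lower in G34R (-0.25 ± 0.044 (SE), adjusted p = 3.16e-04) and higher in set2Δ (0.50 ± 0.044 (SE), adjusted p = 9.57e-08), and in G34V it was at 0.092 ± 0.045 (SE), adjusted p = 0.102 with overlapping libraries. Its sense gene was between 2.25 and 3.88 CPM in all 12 libraries and was called in no mutant. Spo4, the kinase needed for the second meiotic division, had antisense counts of 45.4, 44.0 and 49.1 CPM in the WT libraries, 53.5, 54.1 and 53.7 in those of G34R, 57.0, 56.4 and 55.9 in those of G34V and 66.6, 65.7 and 65.4 in those of set2Δ. All 9 mutant libraries lay above the 3 of WT (0.22, 0.29 and 0.51 on the log2 scale in G34R, G34V and set2Δ, adjusted p at most 4.20e-05). The spo4 gene read 0.358, 0.440 and 0.330 CPM in the WT libraries, 0.666, 0.682 and 0.706 in those of G34R, 0.430, 0.410 and 0.414 in those of G34V and 0.434, 0.530 and 0.324 in those of set2Δ. Its rise in G34R was called (0.89 ± 0.15 (SE), adjusted p = 1.48e-04), and the sense libraries of G34V and set2Δ overlapped those of WT.

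Opposite directions were measured at mcp6, which encodes a protein of the horsetail nuclear movement in meiotic prophase. The counts of mcp6-antisense-1 were 10.7, 10.4 and 10.8 CPM in the WT libraries, 14.5, 14.5 and 14.7 in those of G34R, 11.4, 11.3 and 11.46 in those of G34V and 6.09, 7.35 and 6.59 in those of set2Δ. G34R lay above every other library and set2Δ below every other one, and the comparison of these mutants gave the same order (G34R against set2Δ 1.13 ± 0.051 (SE), adjusted p = 2.54e-11). The mcp6 gene was 4.67, 4.95 and 4.70 CPM in the WT libraries, 4.72, 4.47 and 4.21 in those of G34R, 4.08, 3.38 and 3.27 in those of G34V and 4.27, 3.94 and 3.45 in those of set2Δ. It was called lower in G34V (-0.39 ± 0.088 (SE), adjusted p = 0.00199) and set2Δ (-0.32 ± 0.086 (SE), adjusted p = 0.00408). At mug2, named for a rise of its RNA in meiosis, the antisense RNA read 21.4, 22.2 and 22.6 CPM in the WT libraries, 23.5, 26.3 and 25.6 in those of G34R, 28.8, 31.04 and 29.8 in those of G34V and 42.5, 41.4 and 42.4 in those of set2Δ. Its groups were ordered WT, G34R, G34V and set2Δ with no overlap between neighbours. The sense gene read 10.4, 11.4 and 11.504 CPM in the WT libraries, 9.67, 9.71 and 9.28 in those of G34R, 8.54, 8.89 and 9.53 in those of G34V and 14.7, 13.97 and 13.96 in those of set2Δ. It was lower than WT in both H3 mutants (-0.22 and -0.31) but higher in set2Δ (0.35, adjusted p at most 0.00167 for the 3).

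The strands of atf21 moved in opposite directions in G34R, which brought their levels closer together. Atf21 is a transcription factor of the Atf-CREB family with a role in meiosis, and its antisense RNA read 30.9, 30.9 and 29.2 CPM in the WT libraries, 23.5, 23.0 and 23.96 in those of G34R, 25.4, 25.3 and 25.3 in those of G34V and 32.7, 33.2 and 33.1 in those of set2Δ. The counts of both H3 mutants lay below those of WT, and set2Δ lay above. The atf21 gene read 8.0003, 8.82 and 8.92 CPM in the WT libraries, 11.4, 11.8 and 11.2 in those of G34R, 6.86, 6.22 and 5.43 in those of G34V and 8.47, 8.31 and 8.25 in those of set2Δ. G34R was the highest group and G34V the lowest. Its log2 fold change was 0.42 ± 0.061 (SE), adjusted p = 4.26e-05 in G34R and -0.45 ± 0.067 (SE), adjusted p = 5.47e-05 in G34V. The ratio was 3.55 ± 0.299 in WT cells, 2.05 ± 0.0993 in G34R cells, 4.14 ± 0.489 in G34V cells and 3.96 ± 0.0840 in set2Δ cells, and fell in G34R (-0.79 ± 0.071 (SE), adjusted p = 2.46e-08).

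At other genes of this list, called changes were found on one strand or on both. The antisense RNA of meu26, a gene named for its expression in meiosis, had the largest rise in G34R and read 5.10, 5.39 and 4.83 CPM in the WT libraries, 9.17, 8.60 and 8.14 in those of G34R, 7.25, 6.30 and 6.89 in those of G34V and 6.89, 7.196 and 7.26 in those of set2Δ. All mutant libraries lay above WT, with those of G34R highest. Its sense gene was at 1.30, 1.41 and 1.32 CPM in the WT libraries, 1.84, 2.1004 and 2.01 in those of G34R, 1.74, 1.51 and 1.40 in those of G34V and 2.09, 1.84 and 1.82 in those of set2Δ. A rise was called in G34R (0.57 ± 0.087 (SE), adjusted p = 6.35e-05) and set2Δ (0.50 ± 0.093 (SE), adjusted p = 1.91e-04). The meu14 gene, which encodes a PIL domain protein of sporulation, read 5.87, 6.18 and 6.35 CPM in the WT libraries, 6.32, 6.04 and 6.14 in those of G34R, 7.84, 7.81 and 8.01 in those of G34V and 11.2, 11.2 and 10.9 in those of set2Δ. It rose in set2Δ (0.85 ± 0.043 (SE), adjusted p = 7.99e-11) more than its antisense RNA (0.28 ± 0.032 (SE), adjusted p = 9.82e-07), and the ratio fell (-0.57 ± 0.053 (SE), adjusted p = 1.01e-08). At mcp5, which encodes the anchor of dynein in meiotic prophase, the antisense RNA read 39.9, 38.9 and 40.4 CPM in the WT libraries, 48.9, 48.7 and 47.3 in those of G34R, 45.7, 46.9 and 48.9 in those of G34V and 42.3, 44.6 and 46.2 in those of set2Δ. The gene read 25.4, 24.9 and 25.3 CPM in the WT libraries, 28.6, 26.99 and 26.1 in those of G34R, 25.7, 24.04 and 24.7 in those of G34V and 20.996, 19.7 and 19.6 in those of set2Δ. The antisense values lay above WT in all 3 mutants and the sense values below it in set2Δ (-0.33 ± 0.040 (SE), adjusted p = 2.16e-06), and the ratio was 1.58 ± 0.0209 in WT cells, 1.77 ± 0.0573 in G34R cells, 1.902 ± 0.108 in G34V cells and 2.21 ± 0.178 in set2Δ cells. The meu17 gene fell in set2Δ (-0.90 ± 0.059 (SE), adjusted p = 1.73e-09) while its antisense RNA was at -0.057 ± 0.056 (SE), adjusted p = 0.380. The locus of meu17-antisense-1 is shared with the convergent gene ilv6. In plain CPM, ilv6 averaged 502 in WT cells, 484 in G34R cells, 512 in G34V cells and 413 in set2Δ cells.

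The member nearest the threshold was mcp3. Its antisense RNA read 26.1, 26.0 and 27.2 CPM in the WT libraries, 30.3, 29.3 and 28.8 in those of G34R, 30.3, 29.7 and 30.1 in those of G34V and 44.7, 47.0 and 45.7 in those of set2Δ. Its sense gene read 23.9, 24.9 and 24.6 CPM in the WT libraries, 32.8, 32.9 and 33.6 in those of G34R, 30.6, 29.1 and 30.7 in those of G34V and 29.2, 29.7 and 30.3 in those of set2Δ. In G34R the sense gene was above the antisense RNA in every library, in G34V both strands were at the same level, and in set2Δ the antisense RNA was higher. The ratio was 1.08 ± 0.0335 in WT cells, 0.890 ± 0.0326 in G34R cells, 0.998 ± 0.0209 in G34V cells and 1.54 ± 0.0399 in set2Δ cells, lower than in WT in G34R (-0.28 ± 0.047 (SE), adjusted p = 2.86e-05) and higher in set2Δ (0.51 ± 0.047 (SE), adjusted p = 1.10e-08).

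Of the mating genes, mfm3 had the largest sense rise of the set in both H3 mutants. Mfm3 is a precursor of the M-factor pheromone. The gene read 4.34, 4.41 and 4.53 CPM in the WT libraries, 12.02, 12.4 and 11.6 in those of G34R, 11.01, 11.2 and 10.4 in those of G34V and 4.11, 4.81 and 5.09 in those of set2Δ. G34R and G34V stood above WT and set2Δ without overlap. Its log2 fold change was 1.44 ± 0.060 (SE), adjusted p = 1.05e-10 in G34R and 1.30 ± 0.062 (SE), adjusted p = 3.46e-10 in G34V. For set2Δ it was 0.094 ± 0.067 (SE), adjusted p = 0.222, which was not called. In contrast mfm3-antisense-1 read 24.1, 23.6 and 24.4 CPM in the WT libraries, 26.2, 25.2 and 26.1 in those of G34R, 23.9, 23.1 and 22.5 in those of G34V and 15.01, 16.7 and 16.8 in those of set2Δ. It was lower in set2Δ (-0.57 ± 0.041 (SE), adjusted p = 5.46e-09). The ratio was 5.44 ± 0.114 in WT cells, 2.15 ± 0.109 in G34R cells, 2.14 ± 0.0659 in G34V cells and 3.48 ± 0.179 in set2Δ cells. Its fall was called in G34R (-1.34 ± 0.057 (SE), adjusted p = 7.10e-12), G34V (-1.35 ± 0.059 (SE), adjusted p = 4.47e-12) and set2Δ (-0.66 ± 0.063 (SE), adjusted p = 1.82e-08). At ste6, which encodes the exchange factor that activates Ras1 in mating, both strands rose. The antisense RNA read 40.1, 38.7 and 40.1 CPM in the WT libraries, 46.3, 47.7 and 49.7 in those of G34R, 53.2, 50.7 and 55.1 in those of G34V and 53.9, 53.5 and 55.1 in those of set2Δ. The gene read 32.8, 36.4 and 32.7 CPM in the WT libraries, 46.7, 45.7 and 44.9 in those of G34R, 42.8, 41.5 and 41.95 in those of G34V and 52.2, 54.6 and 53.7 in those of set2Δ. No mutant library of either strand lay within the range of WT. The log2 fold changes of the gene were 0.43, 0.31 and 0.66 in G34R, G34V and set2Δ, with adjusted p of at most 8.49e-06, and those of the antisense RNA 0.28, 0.42 and 0.45 with at most 5.67e-06.

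Among the 8 members with the highest antisense counts, crp79, SPBC28E12.02 and cwf19 had a lower ratio in each mutant, with higher counts on the sense strand. The values of cwf19 follow in the next paragraph. The crp79 gene read 11.7, 12.3 and 12.1 CPM in the WT libraries, 23.8, 23.9 and 23.4 in those of G34R, 20.6, 19.5 and 19.96 in those of G34V and 23.2, 23.6 and 23.4 in those of set2Δ. All mutant libraries were well above WT. Its log2 fold change was 0.98 ± 0.033 (SE), adjusted p = 1.12e-11 in G34R, 0.73 ± 0.034 (SE), adjusted p = 2.39e-10 in G34V and 0.96 ± 0.034 (SE), adjusted p = 8.63e-13 in set2Δ. The antisense RNA read 53.8, 51.5 and 55.7 CPM in the WT libraries, 52.2, 52.9 and 54.3 in those of G34R, 51.1, 50.2 and 50.5 in those of G34V and 49.5, 51.2 and 51.7 in those of set2Δ, and was slightly lower in G34V (-0.086) and set2Δ (-0.079). The call in G34V was lost under upper quartile scaling (0.131), only the 2 groups compared (0.0586), without WT replicate 1 (0.0731), without WT replicate 3 (0.133), without G34V replicate 2 (0.0835) and without G34V replicate 3 (0.0674), and that in set2Δ under upper quartile scaling (0.285), only the 2 groups compared (0.0806), without WT replicate 1 (0.0852), without WT replicate 3 (0.146) and without set2Δ replicate 1 (0.102), with the adjusted p in parentheses. SPBC28E12.02 read 6.59, 6.53 and 6.91 CPM in the WT libraries, 10.6, 11.2 and 11.4 in those of G34R, 10.97, 11.48 and 12.2 in those of G34V and 19.3, 18.9 and 19.5 in those of set2Δ. Both H3 mutants lay between WT and set2Δ (0.73 ± 0.046 (SE), adjusted p = 1.01e-08 in G34R, 0.78 ± 0.048 (SE), adjusted p = 5.74e-09 in G34V and 1.53 ± 0.046 (SE), adjusted p = 1.51e-13 in set2Δ). Its antisense RNA read 51.7, 50.9 and 47.8 CPM in the WT libraries, 48.5, 49.5 and 49.7 in those of G34R, 49.4, 48.5 and 49.8 in those of G34V and 53.1, 53.6 and 52.9 in those of set2Δ. The ratio of SPBC28E12.02 was 7.52 ± 0.525 in WT cells, 4.45 ± 0.105 in G34R cells, 4.27 ± 0.213 in G34V cells and 2.77 ± 0.0655 in set2Δ cells, and in set2Δ its log2 change was -1.44 ± 0.057 (SE), adjusted p = 6.28e-14.

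The splicing factor gene cwf20 changed on both strands. Its antisense RNA read 21.5, 20.7 and 21.1 CPM in the WT libraries, 26.5, 26.1 and 26.2 in those of G34R, 18.6, 19.6 and 19.99 in those of G34V and 12.4, 12.5 and 13.7 in those of set2Δ. G34R was the highest group and set2Δ the lowest, with no overlap between any 2 groups. Against WT the log2 fold change was 0.32 ± 0.039 (SE), adjusted p = 9.09e-06 in G34R and -0.71 ± 0.042 (SE), adjusted p = 5.26e-10 in set2Δ, and between these mutants it was 1.02 ± 0.042 (SE), adjusted p = 6.60e-12. The cwf20 gene read 7.85, 8.62 and 8.30 CPM in the WT libraries, 6.74, 6.75 and 7.21 in those of G34R, 7.74, 7.17 and 7.32 in those of G34V and 8.94, 9.28 and 8.97 in those of set2Δ. It was lower than WT in G34R (-0.26 ± 0.049 (SE), adjusted p = 4.45e-04) and G34V (-0.15 ± 0.051 (SE), adjusted p = 0.0227) and higher in set2Δ (0.13 ± 0.049 (SE), adjusted p = 0.0254). In G34R and set2Δ the strands therefore moved in opposite directions. The sense call in G34V was lost under upper quartile scaling (0.0562), without WT replicate 2 (0.0932), without WT replicate 3 (0.0530), without G34V replicate 2 (0.0940) and without G34V replicate 3 (0.0601), and that in set2Δ under without WT replicate 1 (0.0935) and without set2Δ replicate 2 (0.0809), with the adjusted p in parentheses. At cwf19, the gene with the most antisense counts, the antisense RNA was 96.3 ± 2.01 CPM for WT, 96.8 ± 0.162 for G34R, 98.0 ± 0.939 for G34V, and for set2Δ 101 ± 0.911 (mean ± SD, n = 3), and the gene was 38.9 ± 1.17, 43.3 ± 0.471, 45.9 ± 0.425 and 45.8 ± 1.04 CPM. Its ratio fell slightly in each mutant (log2 change -0.15, -0.21 and -0.16).

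The largest antisense rise of the set was at SPAC1F8.04c, annotated as a hydrolase. The antisense RNA read 31.2, 31.3 and 33.1 CPM in the WT libraries, 28.1, 26.6 and 28.2 in those of G34R, 40.4, 38.8 and 39.7 in those of G34V and 94.8, 93.3 and 89.8 in those of set2Δ. G34R was below WT, G34V above it, and set2Δ far above all other groups (1.54 ± 0.032 (SE), adjusted p = 2.48e-15 in set2Δ). The gene read 4.45, 3.84 and 3.60 CPM in the WT libraries, 3.34, 3.08 and 3.22 in those of G34R, 4.29, 4.59 and 4.14 in those of G34V and 14.1, 14.3 and 14.8 in those of set2Δ. Its log2 fold change in set2Δ was 1.87 ± 0.065 (SE), adjusted p = 8.61e-13. The next gene on the same strand was str3, which encodes a siderophore-iron transporter. In plain CPM, str3 averaged 41.9 in WT cells, 29.1 in G34R cells, 42.3 in G34V cells and 103 in set2Δ cells. The part of str3 in the values of SPAC1F8.04c was not tested. SPCC1884.01, of no annotated function, showed the same order of groups on both strands. Its antisense RNA read 40.3, 41.6 and 42.98 CPM in the WT libraries, 28.4, 26.9 and 28.0 in those of G34R, 42.4, 43.7 and 45.2 in those of G34V and 72.8, 78.3 and 77.9 in those of set2Δ. Its gene read 6.89, 6.004 and 6.13 CPM in the WT libraries, 4.26, 4.50 and 4.46 in those of G34R, 8.38, 8.12 and 8.21 in those of G34V and 20.4, 18.8 and 20.5 in those of set2Δ. Both strands were lowest in G34R and highest in set2Δ. In G34R the log2 fold change was -0.59 ± 0.036 (SE), adjusted p = 8.98e-09 for the antisense RNA and -0.52 ± 0.057 (SE), adjusted p = 2.77e-06 for the gene, and in set2Δ 0.88 ± 0.035 (SE), adjusted p = 4.86e-12 and 1.65 ± 0.053 (SE), adjusted p = 3.09e-13.

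Of the transporter genes, ght6 changed most on the sense strand. The ght6 gene, which encodes a symporter of glucose and fructose, read 10.5, 10.4 and 10.03 CPM in the WT libraries, 13.6, 13.1 and 12.7 in those of G34R, 4.85, 3.75 and 4.06 in those of G34V and 5.35, 5.06 and 5.50 in those of set2Δ. It was above WT in G34R (0.35 ± 0.061 (SE), adjusted p = 2.03e-04) and below it in G34V (-1.26 ± 0.071 (SE), adjusted p = 2.47e-09) and set2Δ (-0.95 ± 0.068 (SE), adjusted p = 5.37e-09). Its antisense RNA read 28.1, 28.8 and 26.8 CPM in the WT libraries, 23.3, 22.3 and 21.4 in those of G34R, 24.7, 26.1 and 28.5 in those of G34V and 30.8, 27.3 and 29.7 in those of set2Δ, with every G34R library below WT (-0.32 ± 0.053 (SE), adjusted p = 1.42e-04). The ratio was 2.71 ± 0.0564 in WT cells, 1.6998 ± 0.0193 in G34R cells, 6.36 ± 1.10 in G34V cells and 5.51 ± 0.213 in set2Δ cells. At opt3, an oligopeptide transporter gene, the strands moved in opposite directions in set2Δ. The antisense RNA read 32.9, 33.5 and 34.02 CPM in the WT libraries, 38.1, 35.7 and 35.9 in those of G34R, 36.3, 38.2 and 38.9 in those of G34V and 54.4, 53.4 and 54.5 in those of set2Δ. The gene read 24.8, 24.5 and 21.6 CPM in the WT libraries, 31.6, 30.8 and 31.05 in those of G34R, 23.6, 22.2 and 19.6 in those of G34V and 18.9, 16.9 and 17.5 in those of set2Δ. The log2 change of the ratio in set2Δ was 1.10 ± 0.077 (SE), adjusted p = 2.00e-10.

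SPBC2G2.17c, annotated as the beta-glucosidase Psu2, was the member whose sense gene overtook its antisense RNA by most. The gene read 15.8, 14.6 and 14.2 CPM in the WT libraries, 37.5, 35.8 and 35.7 in those of G34R, 11.998, 12.5 and 12.6 in those of G34V and 20.4, 20.02 and 21.9 in those of set2Δ. The antisense RNA read 24.6, 24.3 and 24.1 CPM in the WT libraries, 25.6, 26.6 and 25.6 in those of G34R, 26.5, 26.4 and 27.4 in those of G34V and 32.0, 30.8 and 30.3 in those of set2Δ. In G34R the sense strand was higher in every library, and in the other groups the antisense strand was. The sense gene's log2 fold change in G34R was 1.29 ± 0.044 (SE), adjusted p = 1.12e-11, and that of the ratio -1.2006 ± 0.056 (SE), adjusted p = 1.67e-11. The convergent gene mpi1 overlaps this locus. In plain CPM, mpi1 averaged 178 in WT cells, 181 in G34R cells, 177 in G34V cells and 205 in set2Δ cells. Its part in the antisense counts was not tested.

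SPCC191.10 and gst1, which lie side by side, fell on both strands in set2Δ. For SPCC191.10, of no annotated function, the antisense RNA read 6.71, 6.56 and 6.29 CPM in the WT libraries, 5.55, 8.97 and 6.79 in those of G34R, 7.74, 7.004 and 5.23 in those of G34V and 3.68, 3.25 and 2.45 in those of set2Δ. The set2Δ libraries were below all others, and the G34R libraries spread across the WT range. The gene read 2.14, 1.88 and 1.704 CPM in the WT libraries, 1.51, 1.77 and 1.46 in those of G34R, 1.66, 1.59 and 1.38 in those of G34V and 0.845, 0.541 and 0.544 in those of set2Δ. In set2Δ the log2 fold change was -1.11 ± 0.21 (SE), adjusted p = 9.92e-04 for the antisense RNA and -1.62 ± 0.15 (SE), adjusted p = 1.19e-07 for the gene. For gst1, a glutathione S-transferase gene, the antisense RNA read 8.60, 9.20 and 9.14 CPM in the WT libraries, 7.56, 8.72 and 8.54 in those of G34R, 9.06, 8.91 and 8.84 in those of G34V and 6.55, 6.99 and 7.08 in those of set2Δ. The gene read 5.82, 5.65 and 5.82 CPM in the WT libraries, 6.11, 6.27 and 5.94 in those of G34R, 5.67, 5.47 and 4.83 in those of G34V and 2.45, 2.62 and 3.13 in those of set2Δ. In set2Δ both were lower than in WT (-0.38 ± 0.056 (SE), adjusted p = 1.75e-05 and -1.05 ± 0.078 (SE), adjusted p = 8.81e-09), the gene by more, so that the ratio was higher (0.67 ± 0.089 (SE), adjusted p = 1.36e-06). The gene beyond SPCC191.10 is inv1, which encodes invertase. In plain CPM, inv1 averaged 127.8 in WT cells, 152 in G34R cells, 115 in G34V cells and 75.1 in set2Δ cells.

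**Figure D3:**
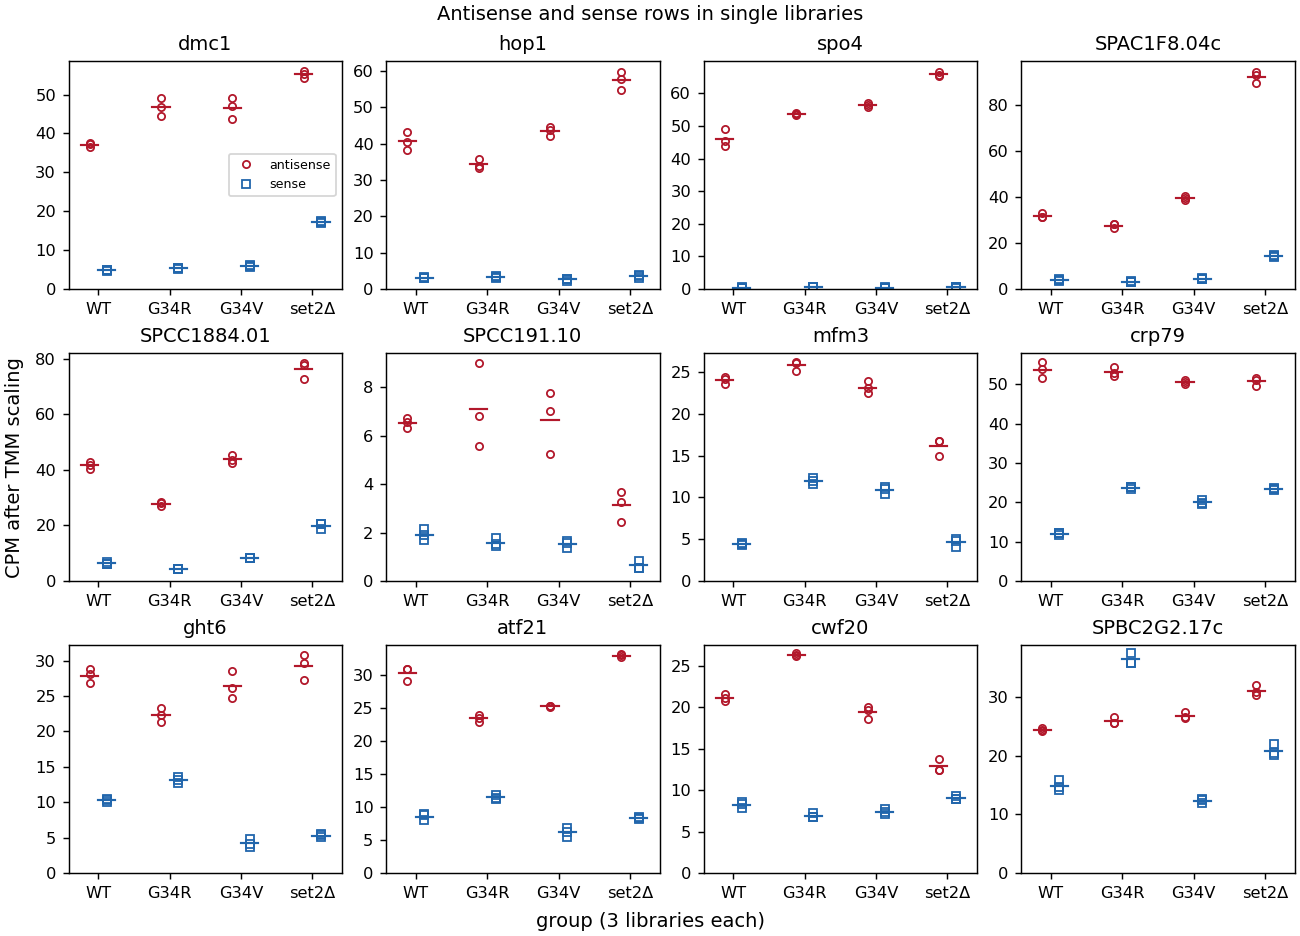
CPM of the antisense row and the sense row in each of the 12 libraries (points, with group means as lines) for selected members in WT, G34R, G34V and set2Δ, on linear axes that start at 0. The antisense points of SPAC1F8.04c lie far higher in set2Δ than in the other groups, and the sense points of SPBC2G2.17c pass the antisense points in G34R.

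The antisense RNA of lowest WT level rose in each mutant. SPAC9E9.17c, of no annotated function, had antisense counts of 0.972, 1.06 and 0.937 CPM in the WT libraries, 1.71, 1.57 and 1.40 in those of G34R, 1.69, 1.69 and 1.81 in those of G34V and 1.76, 1.59 and 1.71 in those of set2Δ. Every mutant library lay above WT, at log2 fold changes of 0.64 ± 0.090 (SE), adjusted p = 2.96e-05 in G34R, 0.80 ± 0.10 (SE), adjusted p = 6.68e-06 in G34V and 0.78 ± 0.094 (SE), adjusted p = 2.32e-06 in set2Δ. Its gene was at 0.185, 0.232 and 0.241 CPM in the WT libraries, 0.379, 0.326 and 0.297 in those of G34R, 0.329, 0.452 and 0.414 in those of G34V and 0.481, 0.530 and 0.471 in those of set2Δ. The ratio was 4.56 ± 0.676 in WT cells, 4.68 ± 0.154 in G34R cells, 4.42 ± 0.702 in G34V cells and 3.43 ± 0.370 in set2Δ cells, and its change was called in no mutant. SPBC713.13 had 0 counts of its sense row in every library, which allows at most 0.0131 CPM in the deepest library and 0.0456 CPM in the shallowest. This limit holds only if reads of the gene could be counted for its row. The name had no match in the later annotation, and whether such reads could be counted was not tested. SPBC713.13-antisense-1 was at 1.47, 1.72 and 1.51 CPM in the WT libraries, 1.41, 1.48 and 1.40 in those of G34R, 1.55, 1.58 and 1.67 in those of G34V and 1.56, 1.46 and 1.08 in those of set2Δ and was called in no comparison.

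The histone H4 gene hhf3 had 1 to 10 counts in a library, too few for a test, and its antisense RNA read 4.44, 4.09 and 4.26 CPM in the WT libraries, 3.86, 4.55 and 4.30 in those of G34R, 3.65, 3.32 and 3.22 in those of G34V and 3.35, 2.77 and 2.53 in those of set2Δ. The labels do not say whether the strains carry hhf3. The antisense RNA was lower than WT in G34V (-0.31 ± 0.090 (SE), adjusted p = 0.00935) and set2Δ (-0.59 ± 0.091 (SE), adjusted p = 2.86e-05), and in G34R it was at 0.000091 ± 0.081 (SE), adjusted p = 0.999.

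The ratio of antisense to sense was tested in 1 model over 550 pairs. Of the 57 member pairs in it, 11 higher and 29 lower were called in G34R, 19 higher and 15 lower in G34V and 19 higher and 21 lower in set2Δ, whereas over all 550 pairs 64.7% were called higher and 11.8% lower in G34R, 58.5% and 10.5% in G34V, with 72.0% and 12.2% for set2Δ (edgeR quasi-likelihood F-test, adjusted over the pairs). The members' median log2 changes of the ratio were -0.14, 0.093 and -0.082, and those of the other 493 pairs 0.32, 0.24 and 0.57. Since the members were taken from the high end of the WT ratio, a lower ratio in the other groups is the direction this choice favours.

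In G34R the largest called rises of the ratio were at cwf20 (0.57), mcp6 (0.56), pof9 (0.52) and SPAC29B12.05c (0.45) (SE 0.052 to 0.093, largest adjusted p = 3.19e-05) and the largest falls at mfm3 (-1.34), SPBC2G2.17c (-1.2006), crp79 (-0.99) and mde1 (-0.97) (SE 0.049 to 0.060, largest adjusted p = 3.74e-10). In G34V they were at ght6 (1.17), mug2 (0.75), pof9 (0.69) and SPCC330.19c (0.64) (SE 0.053 to 0.12, largest adjusted p = 1.14e-04) and at mfm3 (-1.35), crp79 (-0.82), SPBC28E12.02 (-0.81) and mug93 (-0.52) (SE 0.051 to 0.13, largest adjusted p = 0.00201). In set2Δ the rises were at opt3 (1.10), ght6 (1.02), meu17 (0.85) and gst1 (0.67) (SE 0.068 to 0.089, largest adjusted p = 1.36e-06) and the falls at SPBC28E12.02 (-1.44), dmc1 (-1.27), crp79 (-1.04) and SPBC56F2.03 (-0.93) (SE 0.050 to 0.063, largest adjusted p = 5.64e-11). SPBC56F2.03, named in the last list, encodes the actin-like protein Arp10.

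Applied to each mutant, the same rule kept nearly all WT members, and it added few pairs in G34R and more in G34V and set2Δ. In G34R it chose 58 pairs, of which 56 were among the 59 of WT, and SPBC2G2.17c, mcp3 and meu17 dropped out. In G34V it chose 70, of which 58 were shared and mcp3 dropped out, and in set2Δ 77, which held all 59. Pairs that entered numbered 2 in G34R, 12 in G34V and 18 in set2Δ. Among those that entered, SPBC23G7.13c changed from 14.4 against 52.9 CPM (antisense against sense, plain CPM) in WT to 20.8 against 17.7 CPM in G34V and 33.7 against 10.6 CPM in set2Δ. The kinase gene ppk3 went from 72.8 against 79.6 CPM in WT to 96.8 against 82.7 CPM in G34R, 103 against 84.2 CPM in G34V and 135 against 93.3 CPM in set2Δ. SPAC1039.08 went from 9.81 against 10.3 CPM to 10.8 against 6.45 CPM, 11.4 against 8.01 CPM and 23.5 against 13.5 CPM in the same order. These 3 were picked for their values, and no test was made of them.

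Set against each other, the mutants differed at many members, as they did at many of all rows tested. These contrasts hold no WT library, but WT entered the estimate of the spread. In G34R relative to G34V, 11 higher and 21 lower antisense RNAs were called (25.2% and 25.3% of all rows), with a median of -0.044. In G34R relative to set2Δ, 19 higher and 28 lower were called (34% and 35.4% of all rows, median -0.064), and in G34V relative to set2Δ 16 higher and 24 lower (29.6% and 32.8% of all rows, median -0.025). Fitted with the 2 groups alone, the antisense calls were 13 higher and 21 lower, 20 higher and 28 lower and 16 higher and 24 lower in this order. The medians of the 558 other antisense rows were 0.048, -0.26 and -0.33. Sense genes were called 26 higher and 12 lower, 22 higher and 18 lower and 11 higher and 30 lower in the 3 comparisons. Of the 57 sense genes tested these are 45.6% and 21.1%, 38.6% and 31.6%, and 19.3% and 52.6%, beside the same shares of all rows. Ratios were called 7 higher and 27 lower (37.3% and 27.8% of all pairs), 15 higher and 28 lower (21.8% and 56.5%) and 22 higher and 13 lower (16.5% and 59.8%).

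Between the 2 H3 mutants, the antisense RNAs highest in G34R relative to G34V were those against cwf20 (0.44), rem1 (0.36), mcp6 (0.36) and meu26 (0.33) (SE 0.041 to 0.079, largest adjusted p = 0.00148), and the lowest those against SPCC1884.01 (-0.65), SPAC1F8.04c (-0.52), SPCC569.02c (-0.40) and hop1 (-0.34) (SE 0.034 to 0.059, largest adjusted p = 5.81e-05). Between G34R and set2Δ, the differences were led by SPCC191.10 (1.2505), mcp6 (1.13), cwf20 (1.02) and SPAC27F1.10 (0.74) (SE 0.042 to 0.21, largest adjusted p = 4.37e-04) on the higher side and SPAC1F8.04c (-1.75), SPCC1884.01 (-1.46), SPAC24B11.14 (-0.97) and mag2 (-0.90) (SE 0.033 to 0.071, largest adjusted p = 1.88e-08) on the lower. Between G34V and set2Δ, they were led by SPCC191.10 (1.17), mcp6 (0.77), hsp3105 (0.73) and cwf20 (0.58) (SE 0.044 to 0.22, largest adjusted p = 0.00108) and SPAC1F8.04c (-1.22), SPAC24B11.14 (-0.87), SPCC1884.01 (-0.81) and mag2 (-0.71) (SE 0.033 to 0.074, largest adjusted p = 6.07e-07). SPCC191.10, mcp6 and cwf20 were thus above set2Δ in both H3 mutants, and SPAC1F8.04c, SPCC1884.01, SPAC24B11.14 and mag2, the gene of a DNA glycosylase, were below it. On the sense strand, ght6 was 1.61 ± 0.071 (SE), adjusted p = 1.36e-10 in G34R relative to G34V, and SPBC2G2.17c 1.56 ± 0.047 (SE), adjusted p = 1.21e-12.

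In the comparisons with WT, the 2 strands of a member had fold changes of the same sign more often than not. Across the 57 members, the Pearson correlation of the antisense with the sense log2 fold change was 0.219 in G34R, 0.245 in G34V and 0.623 in set2Δ against WT, and the changes had the same sign in 41 (71.9%), 38 (66.7%) and 41 (71.9%). In the other 493 pairs the correlations were 0.0234, -0.0148 and 0.189, and the shares 43.4%, 44.8% and 45.6%. Each strand of the members mostly rose: fold changes were positive for 43, 47 and 42 of the 59 antisense RNAs. On the sense strand they were positive for 44, 35 and 40 of the 57 genes, a direction the rule favours. Strands that each mostly rise often share a sign without any link, so these shares do not measure one. Outside the set most antisense rows were called higher, while the sense medians of the other pairs were -0.020, -0.017 and -0.039. Between mutants the members' correlation was 0.233 for G34R relative to G34V, 0.565 for G34R relative to set2Δ and 0.592 for G34V relative to set2Δ, and in the other pairs -0.0267, 0.324 and 0.256. The sign was shared by 28 (49.1%), 38 (66.7%) and 42 (73.7%) of the members, and by 38.5%, 51.1% and 53.8% of the other pairs. These are descriptions across genes, which are not independent replicates: both values of a point come from the same libraries and share their depth and scaling.

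**Figure D4:**
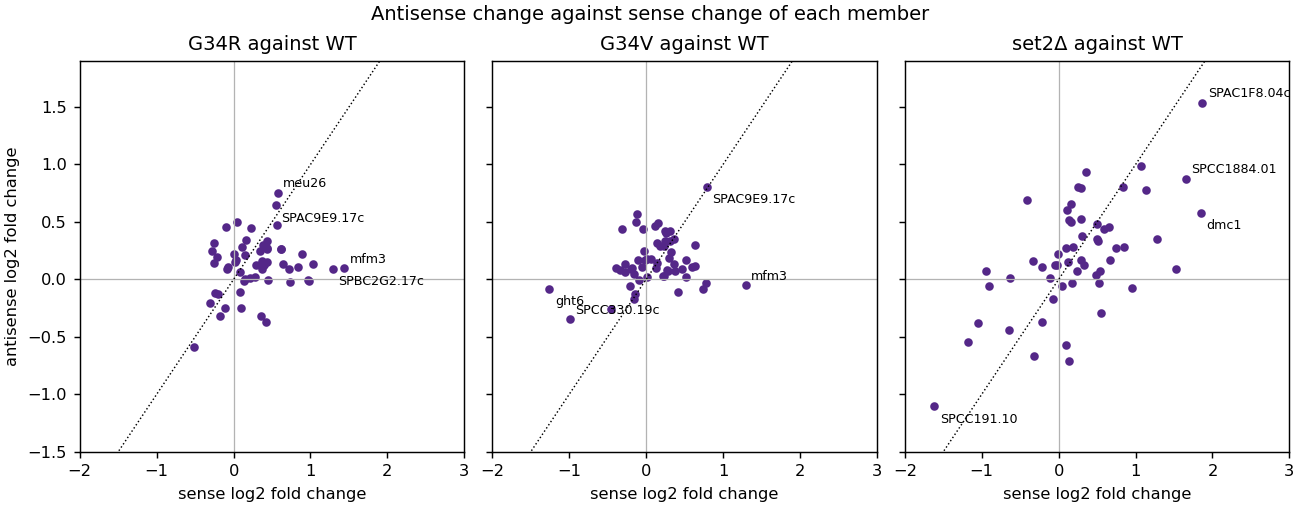
Antisense log2 fold change (vertical) against sense log2 fold change (horizontal) of the 57 members tested on both strands, with 1 panel for each mutant against WT and each point 1 member. The dotted line marks equal change on both strands. Points spread along it in set2Δ. In every panel the sense changes had a wider range than the antisense changes.

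The genes that are known to act on antisense levels in yeasts, a list of 52 genes of the Set2 and Clr6 pathway, elongation factors, histone chaperones, the exosome, RNA interference and termination, were all tested. Of these, 7 were higher and 16 lower in G34R, 9 and 10 in G34V, with 16 and 23 for set2Δ. As shares of the list these are 13.5% and 30.8%, 17.3% and 19.2%, and 30.8% and 44.2%, beside 26.8% and 26.6%, 25.1% and 25.0%, and 34.5% and 35.6% of all rows. Their median log2 fold changes were -0.020, -0.0059 and -0.046. By adjusted p the first 4 in G34R were the exosome gene rrp41 (-0.35 on the log2 scale), air1 (-0.32), which encodes a subunit of the complex that marks RNA for the exosome, the Paf1 complex gene cdc73 (-0.25) and the heterochromatin protein gene swi6 (0.19). In G34V they were alp13 (0.19) and pst2 (0.17), which encode subunits of Clr6 complex II, the elongation factor gene spt5 (-0.21) and cdc73 (-0.17). In set2Δ they were set2 itself (-5.04), spt5 (-0.64), the HIRA chaperone gene hip3 (-0.41) and the RNA-dependent RNA polymerase gene rdp1 (0.41). The part of these genes in the antisense levels was not tested.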

How the data were processed

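The deposited files hold integer read counts per gene row, 1 file per library, with 5 summary lines that were left out of library sizes and tests. Per the submitters' processing notes, reads were called with CASAVA 1.7, trimmed with cutadapt, aligned with STAR to build ASM294v2, handled with SAMtools and counted with HTSeq. No source used here gives the other versions or the strand setting of the counting. All values of set2Δ replicate 3 are even, which the notes do not explain, and its counts were also tried halved. Libraries held 65797517 to 228726069 counts in genes, and floors of 3 counts cover counting error only.

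From the counts, CPM were computed with TMM scaling in edgeR 4.0.16 (R 4.3.3). Membership used plain CPM, as its rule states, and the levels of neighbouring genes are plain CPM too. The 6602 rows kept by filterByExpr were tested with the robust quasi-likelihood F-test in 1 model of 12 libraries with the group as its term, adjusted by Benjamini-Hochberg over all rows and called at 0.05. SE is the log2 fold change divided by the square root of F. Ratios were tested in a second model over 550 pairs, with the library as a block and a strand-by-group term. Both steps were tested on simulated data. Members, gene lists and tests were chosen with earlier results of these data known. Members named are those with the highest WT antisense level (8) or ratio (6), the 3 on each side of the threshold, the largest called changes of each comparison and strand, and the 4 highest of each gene list; meu14, SPBC713.13 and the pairs that entered in mutants were added after their values were seen. Names and neighbours came from RefSeq (ASM294v3), and 58 of 59 sense genes matched; a search for motifs in promoters was not run. Alternatives were RLE and upper quartile scaling, no filter, DESeq2 1.42.0, limma 3.58.1 on log2 ratios with a prior count of 0.5, fits of the 2 groups alone, a minimum of 0.5 CPM, membership chosen in a mutant outside the comparison, and each library left out.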

Additional observations from a re-analysis of the deposited data

How the results depend on the processing

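The calls of meu14 were not checked one by one under the alternatives. Among the other members named with a call, none changed direction in any alternative. Of 598 such calls, 86 were lost under at least 1 alternative and 0 reversed. Of 216 counts of calls recomputed under the alternatives other than leaving out a library, 212 stayed within 1.5 times. Antisense RNAs called lower in G34V fell from 7 to 3 under upper quartile scaling, which shifted the median of all rows by 0.029 (log2). With the members chosen in a mutant outside the comparison, which adds pairs, sense genes called lower in G34R numbered 12 in place of 7, ratios called higher in G34R 21 in place of 11, and ratios called higher in G34V 32 in place of 19. Of 432 counts with 1 library left out, 5 moved by more than that. Antisense RNAs called lower in G34V ranged from 3 to 7, with 3 without WT replicate 1 and 4 without WT replicate 3, G34V replicate 1 or G34V replicate 2. Ratios called higher in G34R relative to G34V ranged from 4 to 7, with 4 without G34V replicate 1. The causes were not tested. No paired analysis was possible because no label ties a library to one of another group, and replicate numbers follow accession order. Depth limits the 9 members whose sense gene had a WT mean under 1 CPM, which are spo4, SPCC417.03, mug93, SPBC887.16, SPAC1834.13, rem1, SPAC9E9.17c, hhf3 and SPBC713.13.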
